A study of Mus musculus with 18 samples.

Results

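The genes followed here are 10 that serve to store and mobilise fat in the adipocyte: the lipases Pnpla2, Lipe and Mgll, the lipase cofactor Abhd5, the lipase inhibitor G0s2, the droplet coat proteins Plin1, Plin2, Plin4 and Plin5, and the droplet fusion protein Cidec. They were chosen by name, and all 10 were found among the 33440 genes to which transcripts were assigned. RNA was sequenced in mouse adipocytes (strain C57BL/6) in 2 separate experiments that asked which genes respond to the transcription factor IRF3. In the first, stromal vascular fraction (SVF) cells of inguinal white fat from IRF3-2D mice were differentiated into adipocytes and given an adeno-associated virus (AAV) with Cre (FI3OE, 3 libraries) or with GFP (WT, 3 libraries). Both groups therefore carry the constitutively active IRF3-2D allele, which Cre switches on, and both were transduced. No culture had Cre without this allele, so an effect of Cre itself cannot be told apart from that of active IRF3. The study's methods list insulin and rosiglitazone in the medium of such cultures. In the second, RNA on tagged ribosomes was pulled down (TRAP) from epididymal white fat (eWAT) of mice lacking Irf3 in adipocytes (FI3KO-Ad-NuTRAP, called FI3KO, 6 libraries) or with Irf3 intact (Ad-NuTRAP, called WT, 6 libraries). All mice of the second experiment carried the ribosome tag and had been fed a high-fat diet (HFD) for 8 weeks at thermoneutrality. For adipocyte-specific deletion the study lists a strain with Cre under the Adipoq promoter. Ages are not given by the sample labels. Each library is labelled a biological replicate without naming a culture or an animal, so p-values measure the spread between these libraries.

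Fat is stored as triglyceride in lipid droplets and released by lipolysis, in which 3 enzymes act in turn. ATGL, encoded by Pnpla2, removes the first fatty acid. Hormone-sensitive lipase, encoded by Lipe, removes the next, and monoglyceride lipase, encoded by Mgll, the last. ATGL needs its cofactor CGI-58 (Abhd5) and is held back by G0S2. Perilipin 1 (Plin1) covers the droplets of mature fat cells and keeps CGI-58 from ATGL until the cell is stimulated. Perilipin 2 (Plin2) coats small droplets in most cell types, macrophages included. Perilipin 4 (Plin4) is made mainly in white fat, perilipin 5 (Plin5) mainly in tissues that burn fat, and CIDEC enlarges droplets by fusing them.

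In GRCm38 the genes lie on 6 chromosomes, as annotated by GENCODE M21. Pnpla2 (ENSMUSG00000025509) lies at chr7:141455198-141460743 and Lipe (ENSMUSG00000003123) at chr7:25379527-25398710. Mgll (ENSMUSG00000033174) lies at chr6:88724412-88828360, Abhd5 (ENSMUSG00000032540) at chr9:122351608-122381524 and G0s2 (ENSMUSG00000009633) at chr1:193272161-193273217. Plin1 (ENSMUSG00000030546) lies at chr7:79720218-79732903, Plin2 (ENSMUSG00000028494) at chr4:86648386-86670060 and Cidec (ENSMUSG00000030278) at chr6:113424634-113435760. Plin4 (ENSMUSG00000002831) at chr17:56100591-56109803 and Plin5 (ENSMUSG00000011305) at chr17:56111601-56117596 are neighbours. Exons of Lipe, Mgll, Abhd5 and Plin4 overlap an annotated gene on the other strand. No library step that marks the strand is described, so reads of such a pair cannot be told apart there. Those partner genes reached at most 25.8 CPM (Hdgfl2, opposite Plin4), against at least 448 CPM for Plin4 itself.

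The bases upstream of 4 of the genes are shown because Plin2, Pnpla2 and Abhd5 were called in opposite directions in the 2 experiments and Plin1 in the same direction in both. Each is the 250 bases before the RefSeq start (GRCm38.p6), 5′ to 3′ on the strand of the gene, at chr4:86670060-86670309 (-) for Plin2, chr7:141454938-141455187 (+) for Pnpla2, chr9:122351366-122351615 (+) for Abhd5 and chr7:79732777-79733026 (-) for Plin1. Capitals mark a match on either strand to TTNNGNAA, a C/EBP-type motif, or to GGGCGG, a GC box.
Plin2: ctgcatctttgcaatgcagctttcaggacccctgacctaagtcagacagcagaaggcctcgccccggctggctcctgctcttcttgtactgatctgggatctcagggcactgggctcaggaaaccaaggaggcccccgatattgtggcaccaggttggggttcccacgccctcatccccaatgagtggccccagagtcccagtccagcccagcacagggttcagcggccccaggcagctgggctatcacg
Pnpla2: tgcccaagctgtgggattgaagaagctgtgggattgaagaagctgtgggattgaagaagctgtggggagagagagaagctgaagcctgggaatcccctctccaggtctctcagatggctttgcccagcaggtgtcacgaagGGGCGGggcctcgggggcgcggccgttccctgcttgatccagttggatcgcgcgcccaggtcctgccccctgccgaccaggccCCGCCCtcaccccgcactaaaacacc
Abhd5: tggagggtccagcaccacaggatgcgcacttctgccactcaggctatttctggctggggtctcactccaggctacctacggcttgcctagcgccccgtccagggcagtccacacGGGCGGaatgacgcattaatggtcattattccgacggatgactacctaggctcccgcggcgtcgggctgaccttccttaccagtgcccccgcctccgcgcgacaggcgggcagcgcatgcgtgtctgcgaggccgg
Plin1: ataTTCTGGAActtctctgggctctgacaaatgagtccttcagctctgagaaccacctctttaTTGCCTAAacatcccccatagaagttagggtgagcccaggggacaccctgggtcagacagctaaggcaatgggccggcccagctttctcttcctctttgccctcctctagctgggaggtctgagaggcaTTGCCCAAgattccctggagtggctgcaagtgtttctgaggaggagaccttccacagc
RefSeq windows of 300 bases (250 before and 50 after the start) were given for all 10 genes, 14 windows in all. None of the 14 held the core of the interferon-stimulated response element (a pair of GAAA runs spaced by any 2 bases), which is in 3.44% of all 32851 windows. None held the direct repeat bound by PPARG with RXR (a pair of AGGNCA runs spaced by any 1 base), which is in 0.381% of all windows. TTNNGNAA was found in 3 of the 14 windows, of Plin1 and Cidec, and in 40.7% of all windows. GGGCGG was found in 9 of the 14, belonging to 7 of the genes, and in 35.7% of all windows, and TATAAA in none of the 14 and 13.6% of all. Both strands were searched, the last pair of motifs was added after the first searches had been seen, and matches of different motifs did not overlap in these genes. A match is a run of letters and not a shown binding site.

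Libraries held between 21541334 and 40490283 estimated reads. Irf3 itself followed the labels, with 95.0 ± 5.7 CPM in FI3OE against 57.2 ± 0.63 CPM in WT (SD, n = 3 each, log2 fold change 0.73, adjusted p = 3.3e-07) and 15.8 ± 2.5 CPM in FI3KO against 20.1 ± 2.1 CPM in WT (SD, n = 6 each, -0.35, adjusted p = 0.02), with overlap in the latter. An Irf3 transcript picked because it had 0 reads in all 6 FI3KO libraries held 164 to 388 in the WT TRAP libraries, which is a description and no test of the labels. Adipocyte markers were present in every group, with none of the 10 markers below 1 CPM throughout a group. The SVF-derived cultures also held 2710 to 2899 summed CPM of 18 macrophage markers and 15770 to 17569 of 8 preadipocyte or fibroblast markers, against 15.7 to 130 and 593 to 2310 in TRAP RNA. In bulk RNA such as this, fewer cells of a type and less RNA per cell cannot be told apart. Within the TRAP experiment, replicates 1 and 2 stood apart from replicates 3 to 6 in both genotypes on the first principal component of the deviations from the group means (35.4% of the variance), to opposite sides in FI3KO and WT. No label names a batch. WT TRAP replicates 1 and 2 were also far closer to each other than any other pair of TRAP libraries, with a chi-square of 2.43 per gene against 8.31 to 270, though above sampling noise. They were kept as 2 libraries, but the labels do not say whether they come from different animals, and if they share RNA the errors of fits that rest on them are too small. The FI3KO libraries lay in pairs, at 35.5 for replicates 1 and 2, 15.4 for 3 and 4 and 16.7 for 5 and 6. Other FI3KO pairs reached 55.8 to 270. What joins these pairs is not given by the labels, and the same limit holds for them.

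Before any comparison, the level of the 10 genes was set out in both WT groups in TPM, which is per length and so can be read across genes. In eWAT adipocytes on HFD the set was led by Cidec with 10337 ± 451 TPM (SD, n = 6), the 6th highest gene of all. Plin1 followed with 4965 ± 243 TPM, then Lipe with 2928 ± 145 TPM. Pnpla2 (1983 ± 361 TPM) and Mgll (1967 ± 198 TPM) had overlapping ranges, as did Plin4 (877 ± 225 TPM) and Plin2 (697 ± 202 TPM), and Plin2 and G0s2 (448 ± 106 TPM). Abhd5 stood at 219 ± 38.6 TPM and Plin5 last at 18.8 ± 6.1 TPM. RNA of the cofactor Abhd5 thus stood far below that of its lipase Pnpla2, at a ratio of 0.116 ± 0.0352 within libraries.

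The SVF-derived WT adipocytes had another order. Pnpla2 was first with 1685 ± 42.9 TPM (SD, n = 3), ahead of Plin1 with 1297 ± 28.9 TPM and Plin2 with 831 ± 18 TPM. Lipe (728 ± 26.5 TPM), Cidec (662 ± 30.7 TPM), G0s2 (499 ± 11.1 TPM), Abhd5 (268 ± 8.2 TPM), Mgll (205 ± 8.95 TPM), Plin4 (177 ± 12.1 TPM) and Plin5 (13.1 ± 1.7 TPM) came after, and no 2 neighbours in this order had overlapping ranges. All 10 genes together made up 6366 ± 136 TPM in these cells and 24439 ± 1035 TPM in WT TRAP RNA. Cidec and Mgll showed the widest gaps between the 2 systems, whereas the ranges of Pnpla2, Plin2, G0s2 and Plin5 overlapped. The WT groups differ in depot, culture, diet and RNA isolation at once, so no test was made between them, and the levels of the cultures are averages over adipocytes and the other cells noted above. The part of the insulin and rosiglitazone in the culture medium was not tested.

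**Figure D1:**
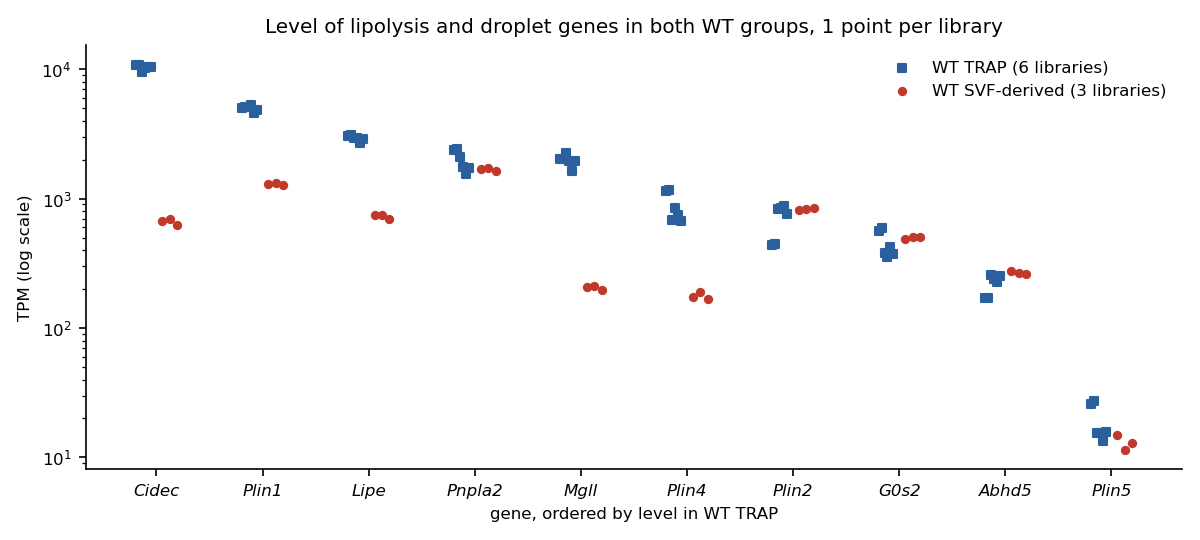
Level of the 10 genes in TPM (log axis) in WT TRAP RNA (6 libraries, squares) and WT SVF-derived adipocytes (3 libraries, circles), 1 point per library. Cidec lies between 9554 and 10803 TPM in TRAP RNA and between 629 and 689 TPM in culture, and WT TRAP replicates 1 and 2 form the separate pair of points for Plin4, Plin2, G0s2, Abhd5 and Plin5.

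The first comparison asked how these genes differ in SVF-derived adipocytes where Cre had switched on active IRF3. Plin2 rose most in FI3OE, 1.70-fold, and the other changes were small, none over 1.24-fold up or below 0.850-fold. The lipases Pnpla2 and Lipe and the coat gene Plin4 fell, while Mgll, Abhd5, Plin1, Plin2 and Plin5 rose. At an adjusted p of at most 0.05 (edgeR's quasi-likelihood test, Benjamini-Hochberg adjustment over 16105 genes) 8 of the 10 were called, 5 higher and 3 lower. Of all genes tested, 37% were called, 20.2% higher and 16.8% lower. With the study's added cutoff of an absolute log2 fold change of 1, none of the 10 was called by edgeR or by DESeq2, against 3.62% of all genes, 1.99% higher and 1.63% lower. The median log2 fold change of the 10 genes was 0.134, beside -0.00474 for all genes.

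Among the lipases, Pnpla2 measured 1030, 1027 and 1011 CPM in WT and 871, 910.5 and 893 CPM in FI3OE. The groups did not overlap, and the log2 fold change was -0.20 (standard error, SE, 0.032, adjusted p = 0.00051). Lipe measured 653, 658 and 643 CPM in WT and 542, 603 and 568.15 CPM in FI3OE, a log2 fold change of -0.19 (SE 0.041, adjusted p = 0.0037). Every FI3OE library thus lay below every WT library for the enzymes of the first and second steps. Mgll, which acts last, went the other way, with 257, 274 and 249.8 CPM in WT and 299.9, 312 and 316 CPM in FI3OE (log2 fold change 0.25, standard error 0.042, adjusted p = 0.00069).

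Abhd5, the cofactor of ATGL, measured 286, 289 and 284 CPM in WT and 343, 342 and 349 CPM in FI3OE, with no overlap (log2 fold change 0.27, standard error 0.033, adjusted p = 6.9e-05). Its transcripts annotated for nonsense-mediated decay summed to 135 ± 7.4 TPM in WT and 174 ± 5.8 TPM in FI3OE. The protein-coding ones summed to 103 ± 3.7 and 116 ± 7.6 TPM (SD, n = 3 each, not tested). G0s2, the inhibitor, measured 141, 145 and 150.1 CPM in WT and 143, 160.1 and 151 CPM in FI3OE. These overlapped, and its log2 fold change of 0.06 (SE 0.046) was not called, with an adjusted p of 0.367.

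Of the droplet proteins, Plin2 separated the groups by the widest margin. It measured 634, 641 and 656 CPM in WT and 1051, 1167 and 1067 CPM in FI3OE, a log2 fold change of 0.77 (SE 0.042, adjusted p = 1e-07). Plin1 rose from 727, 750.03 and 714 CPM to 825, 888 and 821 CPM (log2 fold change 0.21, standard error 0.039, adjusted p = 0.0015). Plin4 fell from 531, 597 and 530.4 CPM to 460.3, 502 and 448 CPM (log2 fold change -0.23, standard error 0.055, adjusted p = 0.0058).

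Plin5 was by far the lowest of the set, with 11.0, 8.52 and 9.69 CPM in WT and 11.9, 12.98 and 11.5 CPM in FI3OE (log2 fold change 0.31, standard error 0.103, adjusted p = 0.036). Its call was lost, with adjusted p between 0.062 and 0.124, when FI3OE replicate 1 or 2 or WT replicate 2 or 3 was left out, and with an offset for transcript length (0.28, adjusted p = 0.13). Cidec did not overlap between groups either, with 412, 411 and 401 CPM in WT and 423, 416 and 435 CPM in FI3OE. Its log2 fold change of 0.06 (SE 0.035, adjusted p = 0.215) was not called, and of all genes tested 49.5% did not overlap between these groups of 3, 25.7% higher and 23.8% lower, beside 6 and 3 of the 10 here.

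**Figure D2:**
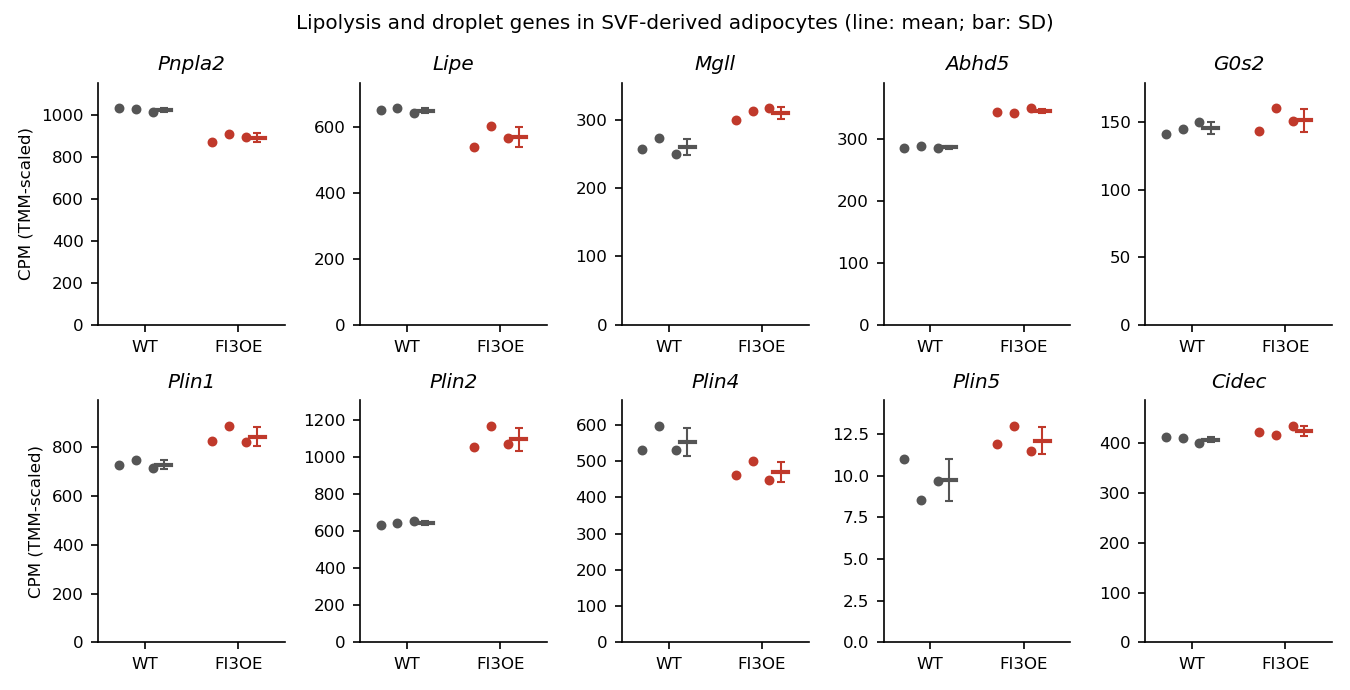
CPM of each gene in WT and FI3OE SVF-derived adipocytes, 1 point per library, with the mean (line) and SD (bar) of the 3 libraries beside the points and every axis starting at 0. FI3OE points lie above all WT points for 6 genes, widest for Plin2, and below them for Pnpla2, Lipe and Plin4, whereas those of G0s2 overlap.

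Cell type markers moved as well. The summed level of the 10 adipocyte markers was 4859 to 5344 CPM in FI3OE and 6084 to 6202 CPM in WT, with 2 markers higher and 5 lower. Adipoq, among the higher ones, rose from 767 ± 24 to 1022 ± 22.7 CPM (SD, n = 3 each). Among the lower ones, Slc2a4 fell from 194 ± 9.4 to 139 ± 6.9 CPM and Cfd from 1453 ± 76.7 to 1260 ± 79.0 CPM. Macrophage markers summed to 2763 to 2852 CPM in FI3OE and 2710 to 2899 CPM in WT. Of 17 tested, 6 were higher and 3 lower, and Mrc1, among the 3 lower, fell from 434 ± 16.9 to 237 ± 13.8 CPM. Preadipocyte or fibroblast markers summed to 15770 to 16022 CPM in FI3OE and 16898 to 17569 CPM in WT. The part of these cells in the changes of the 10 genes was not tested. When all 18 libraries of the study were fitted together, 1 of the 10 genes was called, Plin2 (adjusted p = 0.036). That fit called 1572 genes in all, in place of 5960.

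Other genes of the pathway were taken from lists of 16 further droplet proteins, 11 further hydrolases and fatty acid carriers, and 21 genes of lipolytic signalling. Of 13 droplet proteins tested in FI3OE, 5 rose and 2 fell, where 20.2% of all genes were called higher and 16.8% lower. Bscl2, which encodes seipin of the sites where droplets form, rose from 268 ± 6.3 to 381 ± 11.0 CPM, and Cavin1, a caveola coat protein, from 509 ± 4.5 to 710 ± 31.6 CPM (log2 fold changes 0.51 and 0.48, adjusted p = 1.1e-06 and 2.2e-06). Aup1 and Faf2, droplet proteins that also serve protein degradation, rose by 0.23 and 0.24 on the log2 scale (adjusted p = 0.0014 and 0.0002). Plin3, the most widely expressed perilipin, measured 41.6 ± 2.9 CPM against 41.8 ± 1.9 CPM in WT (adjusted p = 0.96), and Hilpda, another inhibitor of ATGL, 4.99 ± 0.81 against 4.82 ± 0.48 CPM (adjusted p = 0.83). Cidea, the CIDEC relative of brown fat, was near the limit of these libraries, with 0.60 to 1.06 CPM in WT and 0.037 to 0.055 CPM in FI3OE.

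Of 11 hydrolases and carriers, 4 rose and 4 fell in FI3OE (20.2% and 16.8% of all genes). Pnpla3, a relative of ATGL, rose from 83.3 ± 4.1 to 124 ± 7.7 CPM (log2 fold change 0.57, adjusted p = 6.0e-06), and Fabp5, a fatty acid carrier, from 256 ± 6.1 to 369 ± 21.4 CPM (0.52, adjusted p = 3.7e-06). Abhd12 rose by 0.30 on the log2 scale (adjusted p = 4.8e-05), and Ces1d, a carboxylesterase that acts on triglyceride, fell by 0.40 (adjusted p = 0.00025). Fabp4, the main carrier of fat cells, measured 1724 ± 49.5 CPM against 1626 ± 68.5 CPM in WT and was not called (adjusted p = 0.104).

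Upstream of the lipases, 5 of 21 signalling genes rose and 7 fell (20.2% and 16.8% of all genes). Adrb3, the beta-adrenergic receptor typical of fat cells, fell from 216 ± 2.6 to 129 ± 2.1 CPM (log2 fold change -0.75, standard error 0.035, adjusted p = 2.8e-08). Npr1, the natriuretic peptide receptor that drives lipolysis through cGMP, fell from 7.37 ± 0.62 to 1.68 ± 0.15 CPM (log2 fold change -2.12, adjusted p = 4.2e-07). Ffar2, a receptor for short-chain fatty acids, fell by 0.65 on the log2 scale (adjusted p = 0.00025). Pde3b, the phosphodiesterase through which insulin restrains lipolysis, fell from 431 ± 9.2 to 368 ± 41.0 CPM (log2 fold change -0.23, adjusted p = 0.016). For all 4 of these genes the FI3OE libraries lay below every WT library, as they did for 23.8% of all genes tested.

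The second comparison asked which of the genes change when Irf3 is missing in adipocytes of HFD-fed mice. Pnpla2, G0s2 and Plin1 were higher in FI3KO TRAP RNA, 1.55-, 1.43- and 1.19-fold, and Abhd5 and Plin2 were lower, 0.759- and 0.668-fold. At an adjusted p of at most 0.05 these 5 of the 10 were called, where 37.4% of 13624 genes tested were, 19.1% higher and 18.3% lower. None was called with the fold-change cutoff added, by edgeR or by DESeq2, against 6.61% of all genes, 1.74% higher and 4.87% lower. The median log2 fold change was 0.19 over the 10 genes and 0.0163 over all genes. No gene of the 10 separated the 6 FI3KO from the 6 WT libraries without overlap, which 16% of all genes did, 7.47% higher and 8.53% lower.

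For Pnpla2 the WT libraries measured 1398, 1423, 1160, 1038, 1004 and 998 CPM (replicates 1 to 6) and the FI3KO libraries 1904, 1731, 1362, 1488, 2200.2 and 2171 CPM. All but FI3KO replicate 3 lay above every WT library, and the log2 fold change was 0.63 (SE 0.138, adjusted p = 0.0039). By transcript class, those of Pnpla2 annotated as targets of nonsense-mediated decay summed to 878 ± 132 TPM in WT and 1591 ± 274 TPM in FI3KO without overlap, and the protein-coding ones to 1085 ± 328 and 1182 ± 575 TPM with overlap (SD, n = 6 each, not tested). Salmon divides reads shared by transcripts by a model, so this split is less certain than the sum. Lipe ranged from 2197 to 2476 CPM in WT (median 2281) and from 2422 to 2888 CPM in FI3KO (median 2465). The groups overlapped and the log2 fold change of 0.15 (SE 0.065) was not called by edgeR, with an adjusted p of 0.0895, but was by DESeq2's Wald test (adjusted p = 0.04). Mgll overlapped, with 1753 to 2495 CPM in WT and 1922 to 2461 CPM in FI3KO (log2 fold change 0.01, standard error 0.095, adjusted p = 0.94).

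Abhd5 measured 192, 195, 290.2, 249, 220.5 and 246 CPM in WT replicates 1 to 6 and 159.7, 174, 176, 169, 197 and 181 CPM in FI3KO. Every FI3KO library but replicate 5 lay below all WT libraries (log2 fold change -0.40, standard error 0.096, adjusted p = 0.0066). With an offset for the average length of its transcripts the log2 fold change was -0.17 and not called (adjusted p = 0.218). Protein-coding transcripts of Abhd5 summed to 97.4 ± 21.3 TPM in WT and 65.7 ± 6.5 TPM in FI3KO without overlap, and those annotated for nonsense-mediated decay to 119 ± 24.3 and 117 ± 16.3 TPM. G0s2 measured 146, 157, 96.6, 92.6, 115 and 96.0 CPM in WT and 185, 154, 173, 186, 149 and 158 CPM in FI3KO. WT replicate 2 reached into the FI3KO range, replicate 1 lay just under it and the other 4 WT libraries well below (log2 fold change 0.52, standard error 0.134, adjusted p = 0.0095).

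Plin2 measured 332 and 332 CPM in WT replicates 1 and 2 and 600.3, 618, 682 and 587 CPM in replicates 3 to 6. In FI3KO it measured 448 and 371 CPM in replicates 1 and 2 and 321, 352, 311 and 304 CPM in replicates 3 to 6. Hence WT replicates 3 to 6 were above every FI3KO library while WT replicates 1 and 2 were not. The log2 fold change over all 12 libraries was -0.58 (SE 0.182, adjusted p = 0.024), and it was not called when any of WT replicates 3, 4, 5 and 6 was left out (adjusted p between 0.0502 and 0.0547). Plin1 measured 2458, 2563, 2271, 2432, 2295 and 2249.7 CPM in WT and 2382, 2481, 3079.5, 2937, 2984.5 and 3176 CPM in FI3KO. FI3KO replicates 1 and 2 lay within the WT range (log2 fold change 0.26, standard error 0.081, adjusted p = 0.025), and leaving out any of FI3KO replicates 3 to 6, or WT replicate 3 or 6, ended this call (adjusted p between 0.053 and 0.068), as did the length offset (0.17, adjusted p = 0.203) and testing with no filter on low counts (adjusted p = 0.0835).

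Plin4 ranged from 1915 to 3413 CPM in WT (median 2284) and from 2405 to 3574 CPM in FI3KO (median 2861), with a log2 fold change of 0.23 (SE 0.160, adjusted p = 0.272). Plin5 ranged from 9.42 to 18.6 CPM in WT (median 10.2) and from 13.7 to 21.5 CPM in FI3KO (median 16.9). Its log2 fold change of 0.43 (SE 0.188) was not called at an adjusted p of 0.087, but was without WT replicate 1 or without WT replicate 2 (adjusted p = 0.038 and 0.018). Cidec, the most abundant of the set, ranged from 5048 to 5418 CPM in WT (median 5160) and from 4092 to 5118 CPM in FI3KO (median 4780.1). All FI3KO libraries but replicate 5 were below every WT library, and its log2 fold change of -0.16 (SE 0.070) had an adjusted p of 0.082, or 0.045 without that library and 0.021 by DESeq2.

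**Figure D3:**
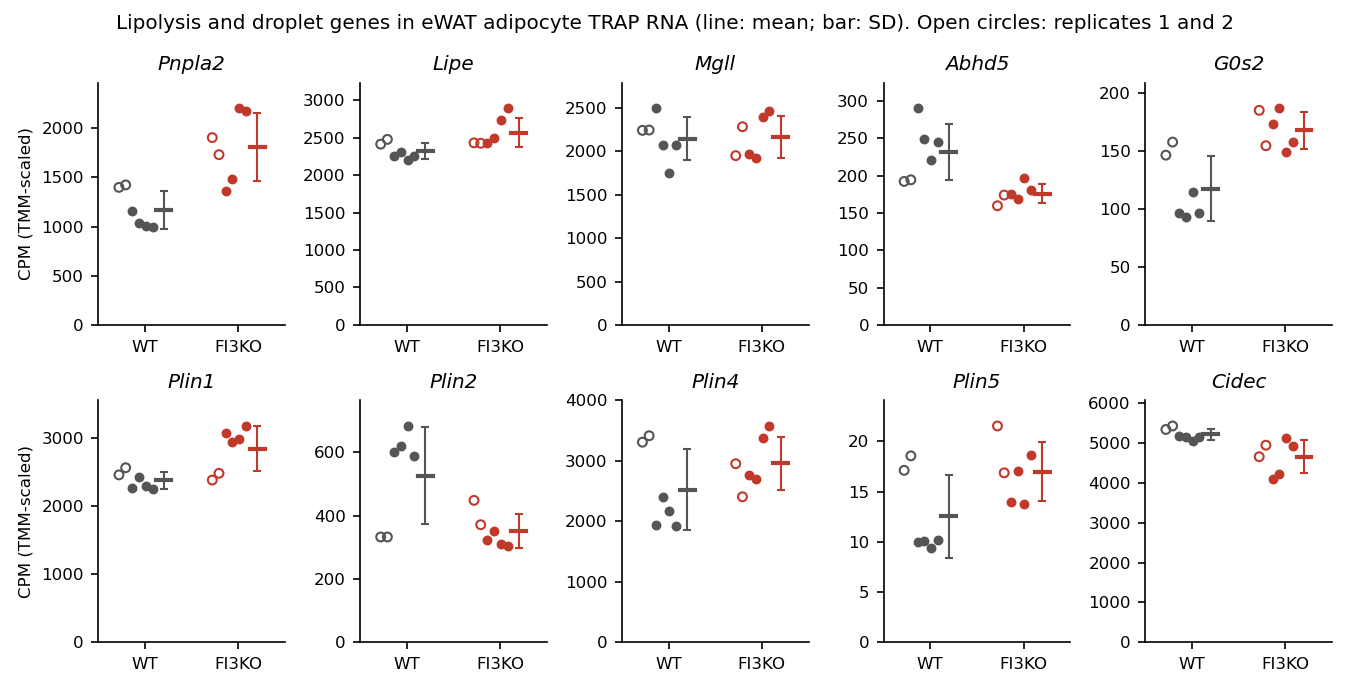
CPM of each gene in WT and FI3KO TRAP RNA, 1 point per library, with the mean (line) and SD (bar) of the 6 libraries and every axis starting at 0. Open circles are replicates 1 and 2. They lie near 332 CPM for Plin2 in WT, where filled circles lie between 587 and 682 CPM, and within the WT range for Plin1 in FI3KO.

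The replicate sets were also taken separately. They were set apart with the pattern of these libraries known, so the tests below measure its size for each gene and are no independent evidence of it. Among replicates 3 to 6, 8 of the 10 genes were called (50.6% of all genes), and the same 8 did not overlap between the groups of 4 (46.6% of all genes). Plin2 was lower in FI3KO by 0.95 on the log2 scale (SE 0.069) and Abhd5 by 0.47 (SE 0.085). Higher were Pnpla2 by 0.79 (SE 0.154), G0s2 by 0.74 (0.089), Plin5 by 0.68 (0.106), Plin4 by 0.56 (0.113), Plin1 by 0.40 (0.059) and Lipe by 0.23 (0.071). The FI3KO libraries of this set lay in pairs, 3 with 4 and 5 with 6, and if paired libraries share RNA these errors are too small. Among replicates 1 and 2, edgeR called none of the 10 (3.56% of all genes), and 5 had an unadjusted p under 0.05, as did 29.1% of all genes. The log2 fold change there was 0.37 for Pnpla2 (SE 0.073, adjusted p = 0.0555), -0.21 for Abhd5 (SE 0.068, adjusted p = 0.126) and 0.31 for Plin2 (SE 0.106, adjusted p = 0.133).

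A test of the difference between the sets, as an interaction over all 12 TRAP libraries, was called for 5 of the 10 genes and for 26.5% of all genes. Plin2 differed most, by -1.25 on the log2 scale (SE 0.128, adjusted p = 4.8e-05). The effect of Plin4 differed by 0.89 (adjusted p = 0.0052), that of G0s2 by 0.58 (adjusted p = 0.018), that of Plin5 by 0.57 (adjusted p = 0.042) and that of Plin1 by 0.44 (adjusted p = 0.0053). For Pnpla2, Abhd5, Lipe, Mgll and Cidec the difference was not called, with adjusted p between 0.131 and 0.986. With WT replicates 1 and 2 averaged as 1 library, a choice made after seeing the data, the interaction was called for 14.3% of all genes and for 3 of the 10: Plin2 (adjusted p = 0.00093), Plin4 (0.0245) and Plin1 (0.0247), but not G0s2 (0.0587) or Plin5 (0.104).

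Markers of other cells moved with genotype and with replicate set in the TRAP RNA. The 18 macrophage markers summed to 85.9 to 130 CPM in WT replicates 3 to 6 and 15.7 to 20.2 CPM in FI3KO replicates 3 to 6, but to 51.3 to 52.2 and 43.3 to 53.5 CPM in replicates 1 and 2, and 14 of the 15 tested were lower in FI3KO over all libraries. Preadipocyte or fibroblast markers summed to 1607 to 2310 CPM in WT and 593 to 974 CPM in FI3KO for replicates 3 to 6, and to 1067 to 1076 and 1127 to 1168 CPM for replicates 1 and 2. The 6 endothelial markers went another way, with 55.5 to 85.8 CPM in FI3KO and 30.2 to 32.2 CPM in WT for replicates 1 and 2, and 19.5 to 28.9 and 19.6 to 36.9 CPM for replicates 3 to 6, and none of the 5 tested was called by edgeR over all 12 libraries (1, Kdr, had an unadjusted p under 0.05). Of the 18 macrophage markers none was at 0 throughout a group, and 3 in WT and 5 in FI3KO were below 1 CPM in every library. Lyz2 reached 23.6 CPM in WT and 9.78 CPM in FI3KO. Of the 10 adipocyte markers 5 were higher and 1 lower, and their sum was 24284 to 31149 CPM in WT and 33041 to 36232 CPM in FI3KO for replicates 3 to 6, and 34803 to 34912 and 26504 to 29593 CPM for replicates 1 and 2. Adipoq measured 2242 ± 758 CPM in WT and 3005 ± 615 CPM in FI3KO (SD, n = 6 each, adjusted p = 0.115). Lep, the 1 lower marker, fell from 9389 ± 2457 to 3032 ± 600 CPM (adjusted p = 0.0001). Cebpa, among the 5 higher, rose from 914 ± 86.3 to 1303 ± 111 CPM (adjusted p = 0.00048 in edgeR). The part of these shifts in the changes of the 10 genes was not tested.

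Around the lipases, 9 of 21 signalling genes rose and 6 fell in FI3KO, where 19.1% of all genes were called higher and 18.3% lower. Adrb3 rose from 273 ± 132 to 864 ± 139 CPM (SD, n = 6 each, log2 fold change 1.66, standard error 0.263, adjusted p = 0.00059), with no overlap between the groups. It rose in both replicate sets, by 2.27 in replicates 3 to 6 and 0.81 in replicates 1 and 2 (adjusted p = 1.6e-06 and 0.033). The size of its rise differed between the sets (interaction adjusted p = 0.00078). Pde3b rose from 771 ± 197 to 1260 ± 117 CPM without overlap (log2 fold change 0.71, adjusted p = 0.0023), Adrb1 from 5.02 ± 3.13 to 11.0 ± 4.9 CPM (1.13, adjusted p = 0.033) and Npr1 from 7.07 ± 1.99 to 14.4 ± 5.1 CPM (1.03, adjusted p = 0.0058), the last pair with overlap. The list thus held both a receptor that starts lipolysis and the phosphodiesterase that restrains it among its rises.

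Of 11 hydrolases and carriers, 4 rose and 3 fell in FI3KO (19.1% and 18.3% of all genes). The carboxylesterases Ces1f and Ces1d rose from 25.2 ± 9.0 to 67.9 ± 22.9 CPM (log2 fold change 1.43, adjusted p = 0.0012) and from 755 ± 333 to 1575 ± 352 CPM (1.06, adjusted p = 0.0059). Both rises differed between the replicate sets, with log2 fold changes of 2.01 and 1.72 in replicates 3 to 6 and of 0.31 and -0.0041 in replicates 1 and 2, not called there (interaction adjusted p = 0.00091 and 1.6e-05). Ddhd2, a lipase of the phospholipase family, rose from 109 ± 5.7 to 158 ± 18.9 CPM without overlap (0.54, adjusted p = 0.00034). Fabp5 fell from 106 ± 18.3 to 51.8 ± 10.5 CPM without overlap (log2 fold change -1.03, adjusted p = 0.00022), whereas Fabp4 rose by 0.30 on the log2 scale (adjusted p = 0.044) with overlap. Ddhd2 and Fabp5 changed by 0.69 and -1.29 in replicates 3 to 6, and by 0.23 and -0.51 in replicates 1 and 2, not called there. Both effects differed between the sets (interaction adjusted p = 0.0015 and 0.012). Of 13 further droplet proteins tested, 3 rose and 4 fell (19.1% and 18.3% of all genes). Tmem159, the partner of seipin in droplet formation, rose from 26.4 ± 9.3 to 54.1 ± 6.1 CPM (1.03, adjusted p = 0.0013) and Hsd17b11 by 0.48 (adjusted p = 0.007). These 2 rises were 1.43 and 0.71 in replicates 3 to 6, and 0.44 and 0.09 in replicates 1 and 2, not called there. Each differed between the sets (interaction adjusted p = 0.001 and 0.011). Cavin1 fell from 3482 ± 187 to 2815 ± 315 CPM (log2 fold change -0.31, adjusted p = 0.01) and Ldah fell by 0.29 (adjusted p = 0.018). Plin3 (log2 fold change -0.09, adjusted p = 0.349), Hilpda (0.70, adjusted p = 0.106) and Cidea (0.38, adjusted p = 0.296) were not called.

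Set side by side, the experiments share no library. Called in both with opposite signs were 3 genes: Pnpla2 (log2 fold change -0.20 with active IRF3 and 0.63 without Irf3), Abhd5 (0.27 and -0.40) and Plin2 (0.77 and -0.58). Plin1 was called higher in both (0.21 and 0.26). The FI3KO calls of Plin1, Plin2 and Abhd5 have the limits given above: those of Plin1 and Plin2 were lost when single libraries were left out, both had the other sign in replicates 1 and 2 (-0.04 and 0.31, not called), and those of Plin1 and Abhd5 were lost with the length offset. Of 13093 genes tested in both experiments, 2227 were called in both, 1370 of them (61.5%) with opposite signs. Among the 10 genes 3 of the 4 called in both were opposite, too few to set against that share. Adrb3 (-0.75 and 1.66), Npr1 (-2.12 and 1.03), Pde3b (-0.23 and 0.71), Ces1d (-0.40 and 1.06), Fabp5 (0.52 and -1.03) and Cavin1 (0.48 and -0.31) were also called in both and opposite. In the lists these come from, 4 of the 5 droplet proteins, 5 of the 5 hydrolases and carriers and 5 of the 9 signalling genes called in both had opposite signs. Among TRAP replicates 1 and 2 alone, Pde3b (0.20), Ces1d (-0.0041), Fabp5 (-0.51) and Cavin1 (-0.17) were not called. The effects of Adrb3, Pde3b, Fabp5 and Ces1d also differed between the replicate sets (interaction adjusted p = 0.00078, 0.00039, 0.012 and 1.6e-05). Of the markers called in both, 2 of 4 adipocyte, 5 of 7 macrophage and 0 of 3 preadipocyte or fibroblast genes had opposite signs. Of those with the same sign, Mrc1 (-0.87 and -1.28), Lep (-0.24 and -1.63), Fn1 (-0.27 and -1.91) and Col1a1 (-0.08 and -1.82) were lower in both. Cfd, an adipocyte marker, had opposite signs (-0.21 and 1.83), though it was not called in TRAP replicates 1 and 2 alone (0.14). Among TRAP replicates 1 and 2 alone, Mrc1 (0.50), Fn1 (-0.23) and Col1a1 (-0.08) were not called by edgeR, whereas Lep was (-0.85, adjusted p = 0.017). The experiments differ in depot, diet, culture and RNA isolation.

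**Figure D4:**
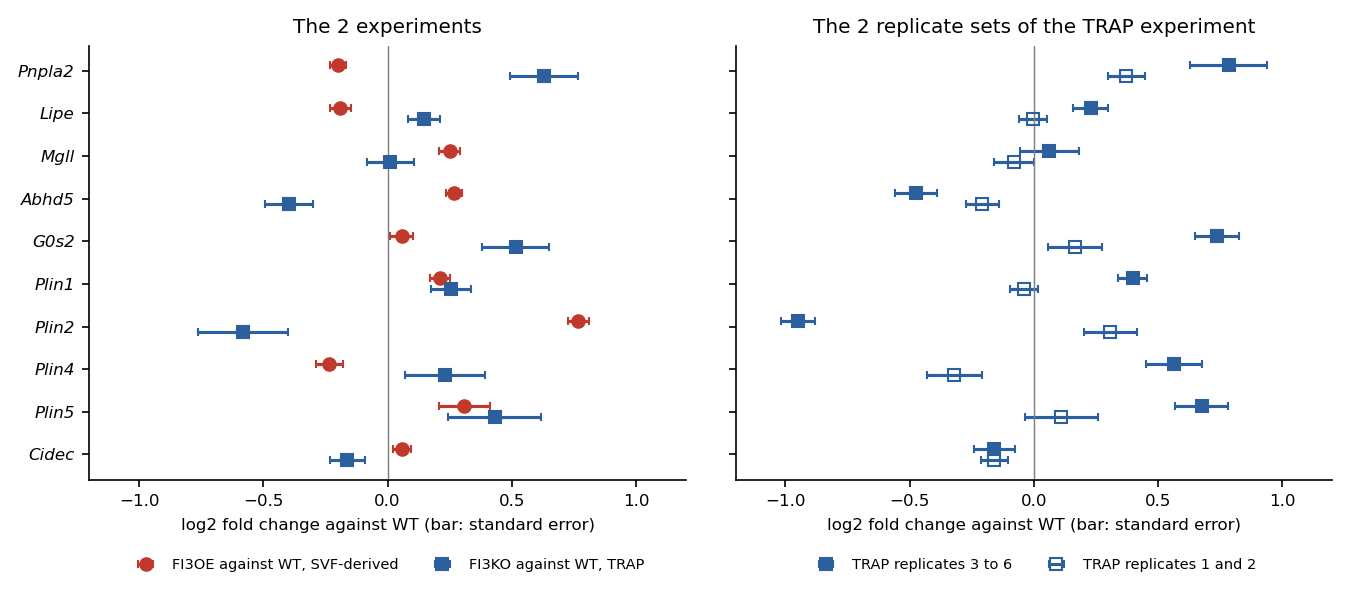
Log2 fold changes against WT with standard errors for the 10 genes, on the left for FI3OE in SVF-derived adipocytes (circles) and FI3KO in TRAP RNA (squares), on the right for TRAP replicates 3 to 6 (filled) and 1 and 2 (open). Plin2 lies at 0.77 in FI3OE and at -0.58 in FI3KO, and at -0.95 and 0.31 in the TRAP replicate sets.

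Ratios of TPM within a library compare the RNA of cofactor, inhibitor and coat genes without reference to other genes, and are given as descriptions. They count all transcripts of a gene, those annotated for nonsense-mediated decay included, and do not measure protein. Abhd5 to Pnpla2 was 0.159 ± 0.0043 in WT and 0.23 ± 0.0035 in FI3OE SVF-derived adipocytes (SD, n = 3 each), with no overlap. In TRAP RNA the same ratio ranged from 0.121 to 0.146 in WT replicates 3 to 6, was 0.0714 and 0.072 in WT replicates 1 and 2, and ranged from 0.0483 to 0.0841 in FI3KO. G0s2 to Pnpla2 was 0.296 ± 0.0127 in WT and 0.359 ± 0.0124 in FI3OE, and overlapped in TRAP RNA (0.226 ± 0.0331 in WT and 0.222 ± 0.0615 in FI3KO). FI3KO replicates 3 and 4 (0.294 and 0.29) lay above the WT range of 0.181 to 0.272, and replicates 5 and 6 (0.147 and 0.164) below it. Lipe to Pnpla2 was 0.432 ± 0.0055 in WT and 0.428 ± 0.0116 in FI3OE, and 1.51 ± 0.21 in WT and 1.11 ± 0.17 in FI3KO TRAP RNA.

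Of the coat ratios, Plin2 to Plin1 was 0.641 ± 0.0244 in WT and 0.97 ± 0.0127 in FI3OE, with no overlap. In TRAP RNA it ranged from 0.156 to 0.192 in WT replicates 3 to 6 and from 0.0595 to 0.0802 in FI3KO replicates 3 to 6, but was 0.0877 and 0.088 in WT and 0.102 and 0.133 in FI3KO for replicates 1 and 2. The order of the genotypes was thus the opposite in the smaller set. Cidec to Plin1 was 0.51 ± 0.0126 in WT and 0.467 ± 0.0443 in FI3OE, which overlapped. It ranged from 1.87 to 2.28 in WT TRAP RNA and from 1.38 to 1.62 in FI3KO replicates 3 to 6, with 2.13 and 2.14 in FI3KO replicates 1 and 2.

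**Figure D5:**
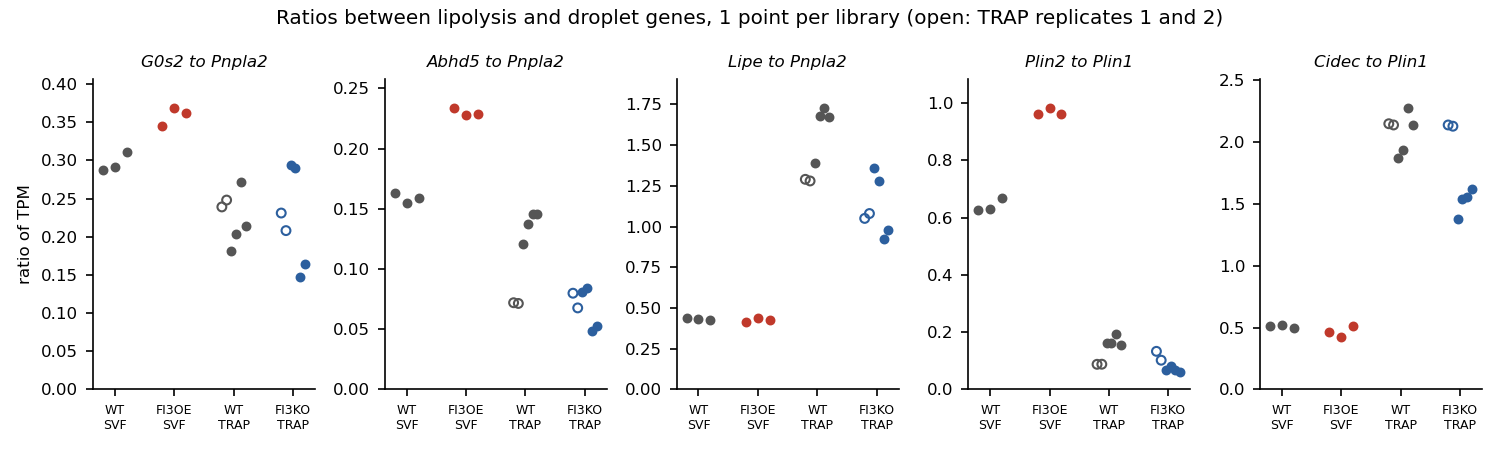
Ratio of TPM between 5 pairs of the genes, 1 point per library in each of the 4 groups (open circles are TRAP replicates 1 and 2, and every axis starts at 0). Plin2 to Plin1 and Abhd5 to Pnpla2 are higher in every FI3OE than in every WT library of the SVF-derived adipocytes, and in TRAP RNA the filled FI3KO points lie below the filled WT points for both.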

How the data were processed

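Ribosomal RNA was depleted and libraries were made by the authors with Nextera XT. Per the study's methods, reads were filtered with fastp and quantified with Salmon 1.4.0 (build GRCm38). The authors deposited, per transcript, estimated counts (expected counts, not normalized) and TPM (abundance scaled for effective length and library total) for 118733 transcripts. Here 117850 transcripts (99.3%) were assigned to genes with GENCODE M21, an earlier release than the authors' own, and each of the other 883 was treated as its own gene (0.37% to 1.08% of reads). Counts were summed per gene and rounded.

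Each experiment was fitted separately with edgeR 4.0.16 in R 4.3.3 (filterByExpr, TMM, quasi-likelihood test, Benjamini-Hochberg adjustment over all genes tested). CPM are TMM-scaled. Genes were called at an adjusted p of at most 0.05, and counted again where log2 fold changes also reached 1 in size. The interaction of genotype and replicate set was tested over all 12 TRAP libraries. TPM served for levels between genes and ratios. The fit was tested on simulated data. Promoter windows are RefSeq's.

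Members and lists were chosen with earlier results of these data known. Besides the 10 genes and Irf3, named genes were, per list and comparison, at most 4 with the largest called change and at least 1 CPM on average in 1 group, plus Fabp4, Plin3, Hilpda, Cidea, Adrb3 and Pde3b. A gene that this rule also names is not reported here. Irf3 and cell type markers were given as checks, and those named were chosen with their values known. Alternatives were DESeq2 (1.42.0; size factors and Wald test), other filters, a transcript-length offset, robust dispersion, all 18 libraries together, removal of mitochondrial-genome genes, Gm26917 and Gm42418, leaving out single libraries, a block for replicate number, the TRAP replicate sets, and, chosen after seeing the data, WT TRAP replicates 1 and 2 averaged as 1 library.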

Additional observations from a re-analysis of the deposited data

Results flagged for a closer look

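There were 5 genes with an effect of Irf3 loss in TRAP RNA that differed between replicates 3 to 6 and replicates 1 and 2, by the interaction test in edgeR, which 26.5% of all genes also passed. The difference in log2 fold change (replicates 3 to 6 minus replicates 1 and 2) was -1.25 for Plin2, 0.89 for Plin4, 0.58 for G0s2, 0.57 for Plin5 and 0.44 for Plin1. With WT replicates 1 and 2 averaged as 1 library, chosen after seeing the data, G0s2 and Plin5 no longer passed (adjusted p = 0.0587 and 0.104), and 14.3% of all genes did. Plin2, Plin4 and Plin1 also had opposite signs in the sets. For all 5 genes WT replicates 1 and 2 lay outside the range of WT replicates 3 to 6, and for Plin1 and Plin2 FI3KO replicates 1 and 2 also lay outside that of FI3KO replicates 3 to 6. What distinguishes the sets is not given by the labels, and its part in the differences was not tested. In the 20 groups of 6 libraries examined gene by gene, no single library stood far from the rest by Dixon's criterion, which chance would meet in about 1 of them. The criterion looks for 1 library apart, so it says nothing of a pair apart together, such as WT replicates 1 and 2.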

How the results depend on the processing

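In SVF-derived adipocytes the direction of all 10 genes held in all 15 alternatives, and calls were lost in 12 of 150 cases, 6 of them Plin5. A fit of all 18 libraries called 1 of the 10 genes in place of 8, and 1572 genes in place of 5960 (342 in place of 583 with the fold-change cutoff), and the length offset called 3800 genes. The spread is shared with the TRAP libraries in that fit. In TRAP RNA, 5 of the 10 genes and 5095 genes in all were called over all 12 libraries. With a library left out, 3 to 6 of the 10 were called (3 without WT replicate 3 or 6) and 3937 to 5343 in all. The length offset called 3 of the 10 and 4180 in all, and DESeq2's Wald test 7 (Lipe and Cidec added) and 5518 in all. Replicates 3 to 6 only gave 8 of the 10 and 6922 in all, and replicates 1 and 2 only gave 0 and 500 in all. With the fold-change cutoff 901 genes were called, 574 with at least 10 counts in every library, 1355 with all 18 libraries, 1868 with replicates 3 to 6 and 191 with replicates 1 and 2. Signs reversed with replicates 1 and 2 only for Lipe (-0.0034), Mgll (-0.078), Plin1 (-0.0395), Plin2 (0.31) and Plin4 (-0.32), and for Mgll with at least 10 counts (-0.0041) and when single libraries were left out (-0.0421 to 0.0572; below 0 without FI3KO replicate 2, 5 or 6 or WT replicate 5 or 6). The cause of these shifts was not tested. With WT replicates 1 and 2 averaged as 1 library, chosen after seeing the data, Plin5 was called too (0.55, adjusted p = 0.028), and the interaction was called for 3 of the 10 genes in place of 5 (14.3% in place of 26.5% of all genes). So averaged, replicates 1 and 2 alone called 0 of the 10 genes and 265 in all (193 with the cutoff), with Lipe at -0.013, Mgll at -0.0858, Plin1 at -0.0504, Plin2 at 0.30 and Plin4 at -0.33; the lone WT sample is assumed to vary like the FI3KO pair. The order of levels held for all 10 genes in the SVF-derived WT group and for at least 8 in WT TRAP RNA. TPM rescaled without mitochondrial-genome genes, Gm26917 and Gm42418 were 14.8% higher in WT SVF-derived adipocytes and 4.09% to 4.64% higher in WT TRAP RNA.

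Replicate numbers did not pair the samples. Deviations of same-numbered libraries correlated between -0.302 and 0.106, and only SVF replicate 1 correlated best with its own number. With the replicate number as a block, 8 of the 10 genes and 5658 genes in all were called in FI3OE, and 4 and 3632 in FI3KO, where Plin1 (0.25, adjusted p = 0.097) and Plin2 (-0.54, adjusted p = 0.104) were not called and Plin5 was (0.47, adjusted p = 0.033). Among the 10 genes, Plin5 had the lowest counts, and the effect of depth on it was not tested.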

Other observations

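Several genes of the set are measured as a mix of transcripts, and these shares were not compared by a test. Pnpla2-201, annotated as a substrate of nonsense-mediated decay, held 46.2% ± 6.2 of the TPM of Pnpla2 in FI3KO and 43.3% ± 6.8 in WT TRAP RNA (SD, n = 6 each), and the protein-coding Pnpla2-202 26.6% ± 9.2 and 36.7% ± 5.3. Pnpla2-204, of the same kind, ranged from 0.228% to 45.8% across the FI3KO libraries and from 0.266% to 8.09% across the WT libraries. Abhd5-205, also so annotated, held 22.1% ± 16.3 in FI3KO and 8.80% ± 8.23 in WT, and the coding Abhd5-204 held 33.9% ± 6.6 and 43.7% ± 6.0. Plin1-201 held 12.2% ± 2.8 in FI3KO and 7.20% ± 2.15 in WT. Salmon splits reads shared by such transcripts by a model, so single shares are uncertain. G0s2 has 1 transcript only, and in every group Plin2-201 carried most of Plin2 (72.7% to 85.0% in single libraries).

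Other genes around the droplet also differed between the TRAP replicate sets. Hilpda was higher in FI3KO by 1.25 on the log2 scale in replicates 3 to 6, with 0.19 in replicates 1 and 2, not called (adjusted p = 0.321, interaction adjusted p = 0.0008 in edgeR). Ces1d was higher by 1.72 in replicates 3 to 6, with a log2 fold change of -0.0041 in replicates 1 and 2 (adjusted p = 0.969, interaction adjusted p = 1.6e-05). Pde3b was higher by 1.02 in replicates 3 to 6, with 0.20 in replicates 1 and 2, not called (adjusted p = 0.129, interaction adjusted p = 0.00039).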
